A study of Mus musculus with 4 samples.

Results

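T cells in which only the alpha chain of the receptor was found made up 123 of the 800 cells with a receptor contig in whole MC38 tumours. They were 82 of 408 cells in the WT library and 41 of 392 in the p53 KO library. The members were chosen by their contigs alone: a cell barcode with 1 or more productive TRA (alpha) contigs and no TRB (beta) contig. A contig is 1 receptor transcript assembled from the reads of 1 cell. All tumours grew from MC38, a colon carcinoma line of the mouse, in C57BL/6J animals that received anti-PD-1, which blocks an inhibitory receptor on T cells. The WT library came from the parental line and the p53 KO library from the line in which p53 was knocked out with CRISPR-Cas9. Both libraries were prepared with the 10x 5' chemistry, which counts RNA molecules by unique molecular identifiers (UMIs). With 1 receptor library per genotype there are no replicates, and the comparisons carry no test. The sources used here do not give how many mice each library holds or whether the knockout line is 1 clone. Whether the members express other T cell genes was not analysed here, since receptor contigs carry no such values.

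The receptor of most T cells joins an alpha and a beta chain. The beta locus rearranges first in the thymus and the alpha locus afterwards, and a functional alpha beta T cell carries both chains. In the alpha locus, on chromosome 14 in the mouse, 1 V gene is joined to 1 J gene, and the join lies in the CDR3, the loop that lies closest to the bound peptide. Bases lost or added at the join make each rearrangement different, so cells with the same CDR3 nucleotides often descend from 1 T cell. Why a cell lacked a beta contig was not tested.

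The 5 alpha chains in the most alpha-only cells of each library are listed, with their CDR3 nucleotides 5' to 3'. Ties were broken by sequence. The list thus holds only some of the 10 WT chains in 2 alpha-only cells, and 1 of the 19 p53 KO chains in 1. Capitals mark bases between the start shared with at least 2 other chains of the same V gene and the end shared with at least 2 others of the same J gene. A capital can still be shared with 1 other chain. All-lower-case chains have no such base, or, for TRAV7D-4, no other chain of the V gene to compare with.
WT TRAV13-2 with TRAJ40, 5 cells: tgtgcGCcaggaaactacaaatacgtcttt
WT TRAV3D-3 with TRAJ17, 5 cells: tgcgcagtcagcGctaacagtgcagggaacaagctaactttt
WT TRAV7D-4 with TRAJ30, 4 cells: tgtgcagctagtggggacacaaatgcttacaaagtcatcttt
WT TRAV10N with TRAJ16, 2 cells: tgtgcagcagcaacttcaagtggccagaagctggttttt
WT TRAV3D-3 with TRAJ23, 2 cells: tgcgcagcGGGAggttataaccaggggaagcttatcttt
p53 KO TRAV6-6 with TRAJ18, 11 cells: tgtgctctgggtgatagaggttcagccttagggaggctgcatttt
p53 KO TRAV3-3 with TRAJ39, 7 cells: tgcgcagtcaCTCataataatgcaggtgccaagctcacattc
p53 KO TRAV7-6 with TRAJ43, 2 cells: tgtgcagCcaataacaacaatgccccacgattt
p53 KO TRAV7D-3 with TRAJ37, 2 cells: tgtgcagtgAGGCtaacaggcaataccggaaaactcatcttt
p53 KO TRAV4-3 with TRAJ39, 1 cell: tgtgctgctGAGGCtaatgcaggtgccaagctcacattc

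Cells with an alpha chain only took a larger share of the WT library. Their share was 20.1% in WT (exact 95% interval 16.3 to 24.3), against 10.5% in p53 KO (7.61 to 13.9). Cells with a beta chain only stood the other way round, with 49 WT cells (12.0%, 9.02 to 15.6) against 92 p53 KO cells (23.5%, 19.4 to 28.0). The intervals of the libraries lie apart for both classes. Among the cells with 1 kind of chain, the alpha-only cells were 82 of 131 in WT (62.6%, 53.7 to 70.9), against 41 of 133 in p53 KO (30.8%, 23.1 to 39.4). The share of cells with both chains was 67.9% and 66.1%. All intervals are by the Clopper-Pearson method, for counting error alone, and treat cells as independent. Cells of 1 clone are not independent, so the true uncertainty is wider.

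**Figure D1:**
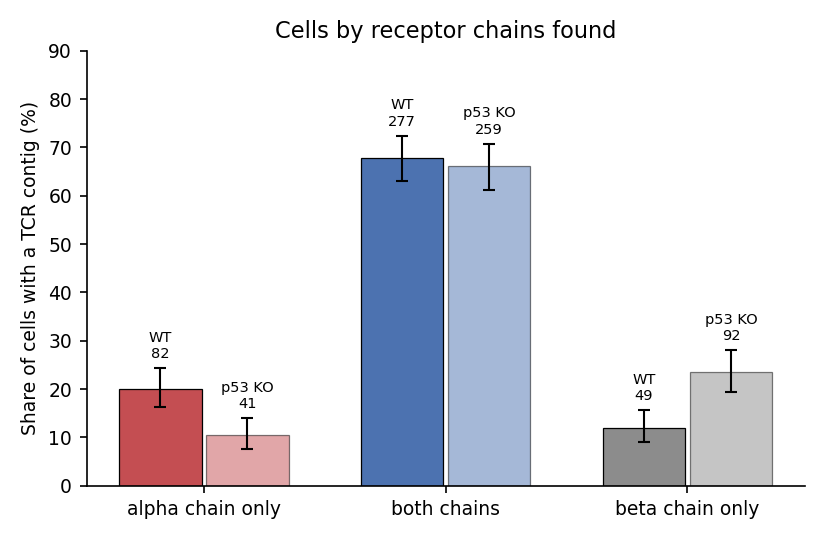
Share of cells with a receptor contig (y axis, %) by the chains found in the cell, for the WT library (full colour) and the p53 KO library (pale), with exact 95% intervals and the number of cells above each bar. The alpha-only bars stand at 20.1% for WT and 10.5% for p53 KO, and the beta-only bars at 12.0% and 23.5%.

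The depth of each chain moved with these shares. In cells with both chains, the median TRA contig had 5 UMIs in WT and 4 in p53 KO, and the median TRB contig had 4 in WT and 6 in p53 KO. Where each contig had to hold 2 or more UMIs before the cells were classed, alpha-only cells were 26.3% in WT and 13.3% in p53 KO, and with 3 or more UMIs 33.4% and 17.7%. The part of depth in the difference between the libraries was not tested. Close to the boundary of the class stood cells in which the beta chain rested on 1 UMI. They were 26 of 277 WT cells with both chains (9.39%, 6.22 to 13.5) and 11 of 259 in p53 KO (4.25%, 2.14 to 7.47), and their TRA contigs had a median of 3 UMIs in both libraries.

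Alpha-only cells held slightly fewer alpha UMIs than cells with a beta chain in WT, and slightly more in p53 KO. In WT their TRA contigs ran from 2 to 15 UMIs with a median of 4 (quartiles 3 and 6, 82 contigs). The 311 TRA contigs of WT cells with a beta chain ran from 1 to 37 with a median of 5 (quartiles 3 and 7). In p53 KO the alpha-only contigs ran from 2 to 12 UMIs with a median of 5 (quartiles 3 and 7, 41 contigs). The 295 TRA contigs beside a beta chain ran from 1 to 22 with a median of 4 (quartiles 2 and 6). The ranges overlap widely, and the medians lie in opposite order in the 2 libraries.

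None of the 123 alpha-only contigs rested on 1 UMI, against 28 of 311 TRA contigs beside a beta chain in WT (9.003%) and 42 of 295 in p53 KO (14.2%). The lowest value was 2 UMIs in beta-only cells as well. The sources used here do not say whether a filter of the processing set this minimum for cells with 1 kind of chain. The order of the medians was the same when only TRA contigs of 2 or more UMIs were compared, at 4 against 5 in WT and 5 against 4 in p53 KO. Contigs of 10 or more UMIs were 6 of 82 in WT alpha-only cells (7.32%, 2.73 to 15.2) and 51 of 311 beside a beta chain (16.4%, 12.5 to 21.0). In p53 KO they were 7 of 41 (17.1%, 7.15 to 32.1) and 20 of 295 (6.78%, 4.19 to 10.3). A single chain, TRAV3-3 with TRAJ39, gave contigs of 10, 12, 12 and 12 UMIs among these 7, so the p53 KO share leans on that chain.

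**Figure D2:**
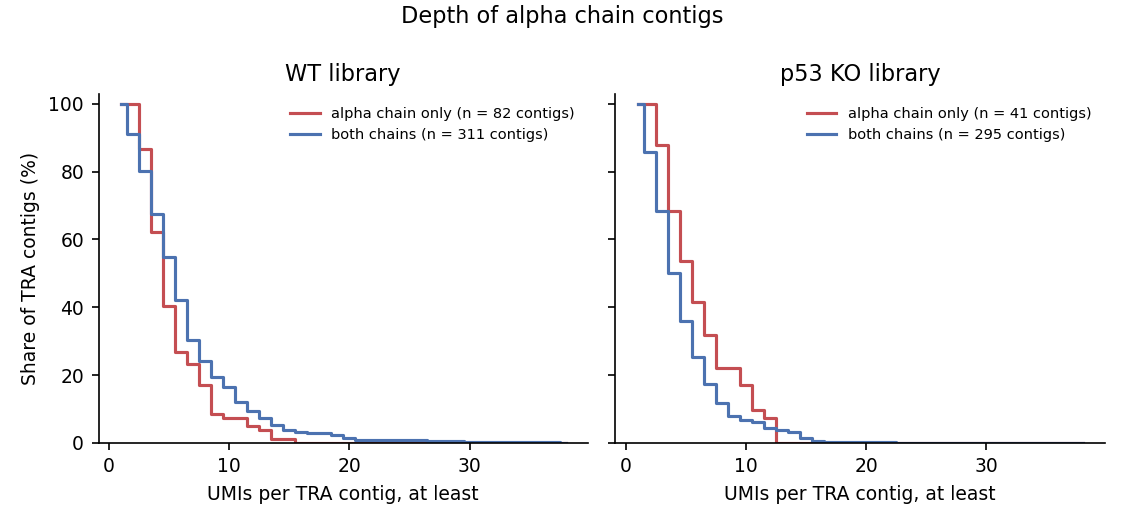
Share of TRA contigs (y axis, %) with at least the number of UMIs on the x axis, for alpha-only cells (red) and cells with both chains (blue) of each library. The red line starts to fall after 2 UMIs, and lies mostly below the blue line in WT (medians 4 and 5) and mostly above it in p53 KO (medians 5 and 4).

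Reads per contig were higher in alpha-only cells of both libraries. The median was 17570 reads in WT alpha-only cells and 15034 beside a beta chain, and 24488 and 15154 in p53 KO. Per UMI, the medians were 4056 and 3348 reads in WT and 5653 and 4360 in p53 KO. These comparisons include contigs of 1 UMI beside a beta chain, while alpha-only contigs had at least 2. With 2 or more UMIs required, the medians beside a beta chain were 16556 (WT) and 16776 (p53 KO). Per UMI they were 3232 (WT) and 4185 (p53 KO). The alpha-only medians were still higher, with a smaller gap per contig and a larger gap per UMI. Over all TRA contigs the assembled lengths were alike, with medians of 572.5 and 564 bases in WT and 555 and 553 in p53 KO. The constant gene TRAC was assigned to all 123 alpha-only contigs, while 2 WT and 4 p53 KO contigs of cells with a beta chain had none. Receptor UMIs per cell were lower in alpha-only cells, with medians of 4 and 5 against 11 in the cells with both chains of either library, which count 2 kinds of chain.

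No alpha-only cell held a second alpha chain. Among the alpha-only cells, 0 of 82 in WT and 0 of 41 in p53 KO had a second TRA contig, where 3 counts of the total, the limit that a count of 0 allows, are 3.66% and 7.32%. In cells with both chains a second TRA contig was found in 34 of 277 in WT (12.3%, 8.65 to 16.7), as in 36 of 259 in p53 KO (13.9%, 9.93 to 18.7). A second beta chain was likewise found in 0 of 49 WT and 0 of 92 p53 KO beta-only cells. The alpha locus can rearrange on both chromosomes, so some T cells carry 2 alpha transcripts. Whether a filter also removed second chains from cells with 1 kind of chain is likewise not stated.

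Much of the alpha-only class carried an alpha chain that was also seen with a beta chain. The CDR3 nucleotides of 41 of 82 WT cells were found in a WT cell with a beta chain (50%, 38.7 to 61.3). In p53 KO they were found for 32 of 41 cells (78.0%, 62.4 to 89.4). The cells with both chains give a scale: their alpha chain was in another such cell in 117 of 277 WT cells (42.2%, 36.4 to 48.3), against 154 of 259 p53 KO cells (59.5%, 53.2 to 65.5). A cell with both chains counted if any of its TRA contigs was in another such cell. Of these cells 12.3% in WT and 13.9% in p53 KO hold 2 or more TRA contigs, while alpha-only cells hold 1. In each library the interval of the alpha-only share overlaps that of this comparison. Counted once per chain, 25 of 61 WT chains (41.0%, 28.6 to 54.3) and 14 of 23 p53 KO chains (60.9%, 38.5 to 80.3) were also seen beside a beta chain. Without the cells of the 2 leading alpha chains of each library, the cell shares were 31 of 72 in WT (43.1%) and 14 of 23 in p53 KO (60.9%).

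Cells whose chain had such a match had a higher median depth, with much overlap. In WT the median was 4 UMIs in 41 matched and 3 in 41 unmatched alpha-only cells. In p53 KO it was 5 in 32 matched and 3 in 9 unmatched cells. Unmatched cells reached 13 UMIs in WT and 9 in p53 KO. Within a chain, the depth of the alpha contig had no common direction. Of the 25 matched WT chains, the median alpha UMI count was lower without the beta chain in 13, higher in 7 and equal in 5. Of the 14 matched p53 KO chains it was lower in 7, higher in 6 and equal in 1. Alpha-only contigs had at least 2 UMIs, while those beside a beta chain could have 1, so the groups do not share a minimum. For 13 of the WT and 3 of the p53 KO chains, the comparison rests on 1 cell with a beta chain. The beta contigs of the partner cells had a median of 4 UMIs in WT, as in the other WT cells with both chains. In p53 KO the median was 7 against 5 in the others. The p53 KO value pools 89 partner cells, of which 29 carry the TRAV7D-3 chain and 16 the TRAV7-6 chain with TRAJ43. Each of these chains holds only 2 alpha-only cells.

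Most chains of the class were in 1 alpha-only cell, though many of these were also in cells with a beta chain. In WT 48 of the 61 chains were in 1 alpha-only cell, 10 were in 2 and 3 were in 4 or 5. In p53 KO 19 of the 23 chains were in 1 alpha-only cell, 2 were in 2, and the remaining 2 held 11 and 7. Counted over cells of any class, chains of 2 or more cells held 51 of 82 alpha-only cells in WT (62.2%). In p53 KO they held 32 of 41 (78.0%). Chains of 2 or more alpha-only cells held 34 of 82 WT cells (41.5%, 30.7 to 52.9), against 22 of 41 p53 KO cells (53.7%, 37.4 to 69.3). Without the cells of the 2 leading chains the order turned, at 24 of 72 in WT (33.3%) against 4 of 23 in p53 KO (17.4%). The 2 leading chains held 10 of 82 alpha-only cells in WT (12.2%, 6.01 to 21.3), against 18 of 41 in p53 KO (43.9%, 28.5 to 60.3).

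The share of a chain's cells that lacked a beta chain varied from 0% to 83.3% in WT and from 0% to 68.8% in p53 KO, among alpha chains in 3 or more cells. There were 26 such chains in WT, of which 12 had no alpha-only cell, and 19 in p53 KO, of which 8 had none. Their median share was 19.6% in WT and 9.09% in p53 KO. Most of the cells lacked a beta chain in 3 WT chains and 2 p53 KO chains. These were, in WT, TRAV13-2 with TRAJ40 (5 of 6 cells), TRAV7D-3 with TRAJ22 (2 of 3) and TRAV3D-3 with TRAJ17 (5 of 8). In p53 KO they were TRAV6-6 with TRAJ18 (11 of 16) and TRAV3-3 with TRAJ39 (7 of 11). TRAV7D-3 with TRAJ22 falls outside the rule for named chains and was picked for its value.

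**Figure D3:**
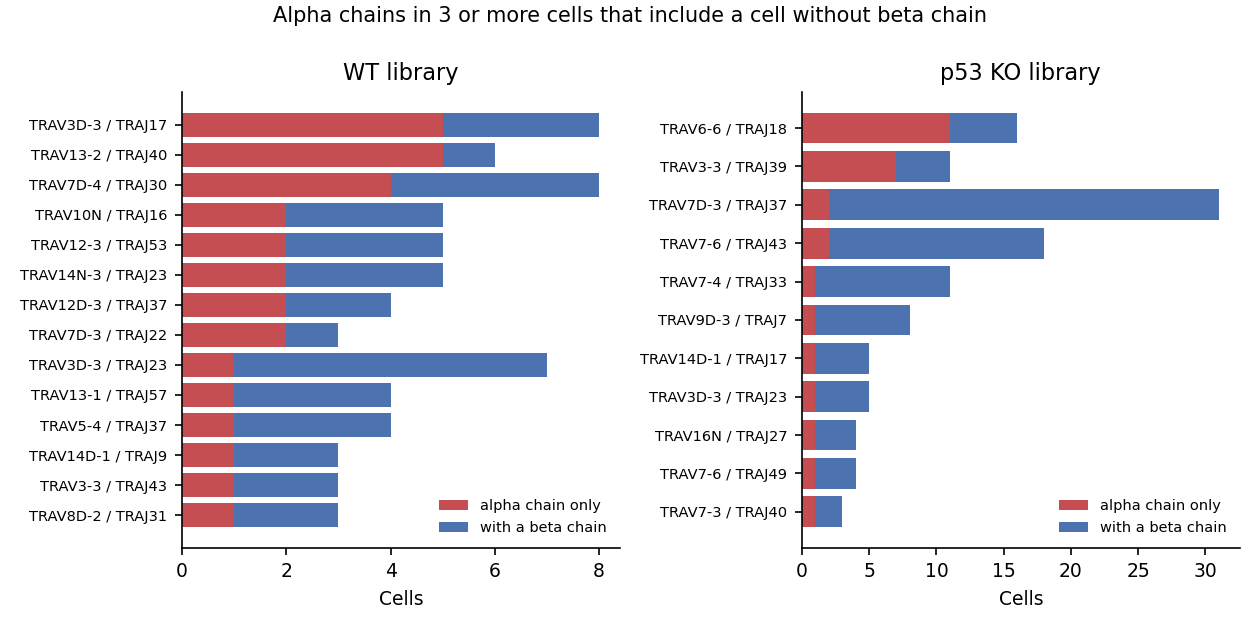
Cells (x axis) that carry each alpha chain found in 3 or more cells of a library and in at least 1 alpha-only cell, split into cells without a beta chain (red) and with one (blue), with the V and J gene of the chain on the y axis. In p53 KO, 11 of 16 TRAV6-6 cells and 7 of 11 TRAV3-3 cells are red, against 2 of 31 TRAV7D-3 cells and 2 of 18 TRAV7-6 cells. Chains are grouped by CDR3 nucleotides, and the WT TRAV10N bar includes 2 cells with a beta chain whose V gene is TRAV7D-2.

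The p53 KO TRAV6-6 chain, shown first among the p53 KO sequences, had 2, 2, 3, 3, 4, 5, 5, 5, 6, 9 and 11 UMIs in its alpha-only cells. In its 5 cells with a beta chain it had 2, 3, 7, 8 and 10 UMIs. The groups overlap over nearly their whole range. The beta contigs of those 5 cells ran from 1 to 18 UMIs, and no beta chain was in more than 2 of the cells.

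The p53 KO TRAV3-3 chain was deeper where the beta chain was missing. Its 7 alpha-only cells had 4, 6, 7, 10, 12, 12 and 12 UMIs, and its 4 cells with a beta chain had 4, 4, 6 and 6. The medians of 10 and 5 UMIs differ, but the lowest alpha-only values lie within the range of the others. Each of the 4 partner cells held a different beta chain, of 2 to 8 UMIs.

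The 2 p53 KO alpha chains found in the most cells gave few alpha-only cells. This did not hold for the next largest, the TRAV6-6 chain, with 11 alpha-only cells of 16. TRAV7D-3 with TRAJ37 had 2 alpha-only cells, of 6 and 7 UMIs, among 31 cells, and 28 of its 29 cells with a beta chain shared 1 beta chain. TRAV7-6 with TRAJ43 had 2 alpha-only cells, of 4 and 7 UMIs, beside 16 cells with a median of 1.5 UMIs and 1 common beta chain. That beta chain was found without an alpha chain in 14 further cells.

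In WT the TRAV7D-4 chain had fewer alpha UMIs where the beta chain was missing. Its 4 alpha-only cells had 3, 4, 5 and 7 UMIs, and its 4 other cells had 6, 6, 11 and 13, all with 1 common beta chain of TRBV23. Only the highest alpha-only value passes the lowest of the others. The TRAV3D-3 chain with TRAJ17 had 4, 4, 4, 8 and 12 UMIs in its alpha-only cells, and 5, 8 and 10 in 3 cells that shared a TRBV13-1 beta chain. The TRAV13-2 chain with TRAJ40 had 3, 5, 5, 7 and 13 UMIs in 5 alpha-only cells. It was found beside a beta chain in 1 cell, with 7 UMIs, and that cell held a second alpha chain.

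The TRAV10N chain of WT shared its CDR3 nucleotides with a chain of another V gene. Of the 3 cells with a beta chain that hold this CDR3, 1 had TRAV10N and 2 had TRAV7D-2. With the V and J gene also required, the number of matched alpha-only cells was 41 in WT and 32 in p53 KO, as with the nucleotides alone.

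Over all matched chains, a beta chain common to the partner cells was found more often in WT than in p53 KO. Chains that no alpha-only cell carried also had a single beta chain more often in WT. A beta chain present in all partner cells was found for 22 of the 25 matched WT chains, which cover 36 of the 41 matched cells. In p53 KO it was found for 9 of 14 chains, which cover 10 of 32 cells. A chain with 1 partner cell meets this by construction, which applies to 13 WT and 3 p53 KO chains. Among chains with 2 or more partner cells it was 9 of 12 in WT and 6 of 11 in p53 KO. By the stricter count of chains seen with a single beta chain in all, these were 6 of 12 and 4 of 11. These counts are too small to order the libraries. Chains in 2 or more cells with both chains and in no alpha-only cell had a single beta chain in 27 of 32 cases in WT (84.4%, 67.2 to 94.7) and in 16 of 33 in p53 KO (48.5%, 30.8 to 66.5). A gap between the libraries was thus present outside the alpha-only class. The p53 KO chains with no such beta chain include TRAV6-6, TRAV3-3 and TRAV7D-3, which together hold 20 alpha-only cells.

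The deposited clonotypes grouped fewer alpha-only cells with cells that have a beta chain. In WT 36 of 82 alpha-only cells (43.9%, 33.0 to 55.3) were in a clonotype that also held a cell with a beta chain. In p53 KO it was 8 of 41 (19.5%, 8.82 to 34.9), against 32 by CDR3 nucleotides. The 11 TRAV6-6 cells, the 7 TRAV3-3 cells and the 2 TRAV7D-3 cells each formed a clonotype apart from the cells with a beta chain. In WT 40 of the 61 clonotypes with alpha-only cells held no other cells, and in p53 KO 16 of 22. The largest clonotype that holds an alpha-only cell had 8 cells in WT and 18 in p53 KO.

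Of the 36 WT chains never seen beside a beta chain, 5 were in 2 alpha-only cells each and 31 in 1. All 9 such p53 KO chains were in 1 cell. Some unmatched chains encode the same protein as a matched one. In WT 2 of them, of 4 cells, had the V gene, J gene and CDR3 amino acids of a chain beside a beta chain, which raised the matched cells from 41 to 45. In p53 KO there were 0. The sequences differ at 2 and 3 bases, shown in capitals, the alpha-only chain first.
TRAV3D-3 with TRAJ23, 2 alpha-only cells: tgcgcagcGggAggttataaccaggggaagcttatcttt
TRAV3D-3 with TRAJ23, 6 cells with a beta chain: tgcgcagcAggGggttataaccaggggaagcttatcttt
TRAV9-2 with TRAJ37, 2 alpha-only cells: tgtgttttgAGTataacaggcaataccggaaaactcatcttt
TRAV9-2 with TRAJ37, 1 cell with a beta chain: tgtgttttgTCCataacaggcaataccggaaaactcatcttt

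Between the libraries, 0 alpha CDR3 nucleotide sequences and 0 cell barcodes were shared. By V gene, J gene and CDR3 amino acids, 0 chains were in alpha-only cells of both. A WT alpha-only cell with TRAV3D-3 and TRAJ5 had the CDR3 amino acids of a p53 KO cell with both chains, and the nucleotides differ at 2 bases, in capitals.
WT, alpha-only: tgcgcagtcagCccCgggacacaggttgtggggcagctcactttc
p53 KO, with a beta chain: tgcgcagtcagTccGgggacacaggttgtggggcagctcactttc

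The V genes of alpha-only cells were spread widely, at 36 genes over 61 chains in WT and 16 over 23 in p53 KO. Each chain was counted once per class here, by its V gene, J gene and CDR3 nucleotides. The 25 WT and 14 p53 KO matched chains count in both classes, so likeness between the classes in gene use, J position and CDR3 length is partly built in. In WT TRAV3D-3 (chromosome 14, 52972532 to 52973038 in GRCm38.p6) led with 5 of 61 chains (8.20%, 2.72 to 18.1). It was in 7 of 235 chains beside a beta chain (2.98%, 1.21 to 6.04). TRAV12D-2 (52915915 to 52916426) was in 4 chains (6.56%) against 8 (3.40%), and TRAV14D-1 (52855665 to 52856166) in 4 against 10 (4.26%). In p53 KO TRAV7-6 (53716760 to 53717291) led with 3 of 23 chains, against 3 of 174. TRAV16N (53351090 to 53351621) had 2 against 6, and TRAV4D-4 (52990889 to 52991389) 2 against 0. Reads of the near-identical D and N copies of V genes may be divided between names, so single genes are uncertain.

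Of the WT genes in 10 or more chains, 3 of 5 TRAV genes (60%) had an alpha-only share at least 1.5 times that beside a beta chain. They were TRAV3D-3, TRAV12D-2 and TRAV14D-1, and 1 (20%), TRAV9-4, was lower by that factor, with 1 chain against 9. No p53 KO TRAV gene was in 10 chains. Of 9 WT TRAJ genes, 2 (22.2%) were higher and 3 (33.3%) lower by the factor, and of 4 in p53 KO, 0 (0%) were higher and 2 (50%) lower. With so few chains the shares move by this factor at 1 or 2 chains, and the intervals of the named genes overlap between the classes, as for TRAV3D-3.

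By family, TRAV7 genes were in 10 of 61 WT alpha-only chains (16.4%, 8.15 to 28.1), against 28 of 235 (11.9%, 8.07 to 16.8). In p53 KO they were in 9 of 23 (39.1%, 19.7 to 61.5), against 21 of 174 (12.1%, 7.63 to 17.9), and the intervals lie apart. TRAV7 was picked for its value, as the widest such gap among 7 families. By cells, which count repeated chains in full, the p53 KO shares were 11 of 41 (26.8%, 14.2 to 42.9) and 76 of 259 (29.3%, 23.9 to 35.3). TRAV12 genes were in 10 of 61 WT chains (16.4%, 8.15 to 28.1) against 22 of 235 (9.36%, 5.96 to 13.8). In p53 KO they were in 0 of 23, with an interval up to 14.8%, against 15 of 174 (8.62%), a share within that limit. V genes that can also join the delta locus were in 2 of 61 WT chains (3.28%, 0.400 to 11.3) and 0 of 23 p53 KO chains, against 20 of 235 (8.51%, 5.28 to 12.8) and 12 of 174 (6.90%, 3.61 to 11.7).

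Among J genes, TRAJ37 (54181518 to 54181577) led in WT with 8 of 61 chains (13.1%), against 21 of 235 (8.94%). TRAJ31 (54187895 to 54187951) had 6 (9.84%) against 13 (5.53%), and TRAJ40 (54177921 to 54177981) had 5 (8.20%) against 10 (4.26%). TRAJ23 (54196081 to 54196140) was lower in WT, with 3 against 19 chains, as was TRAJ15 (54204422 to 54204481), with 1 against 10. In p53 KO TRAJ23 had 3 of 23 chains against 17 of 174, TRAJ39 (54179962 to 54180024) had 3 against 2, and TRAJ40 had 3 against 5. TRAJ31 and TRAJ7 (54211470 to 54211528) each had 1 chain against 12. Counted by cells, TRAJ18 led the p53 KO alpha-only class with 12 of 41 cells, 11 of them from the TRAV6-6 chain.

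The position of the J gene differed little between the classes. J genes numbered 40 or above, nearest to the V genes, were in 14 of 61 WT alpha-only chains (23.0%, 13.2 to 35.5) and in 60 of 235 chains beside a beta chain (25.5%, 20.1 to 31.6). In p53 KO they were in 5 of 23 (21.7%, 7.46 to 43.7) and 38 of 174 (21.8%, 15.9 to 28.7). TRAJ21 to TRAJ39 were used by 34 of 61 alpha-only chains (55.7%) and 125 of 235 others (53.2%) in WT, and by 13 of 23 (56.5%) and 86 of 174 (49.4%) in p53 KO.

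**Figure D4:**
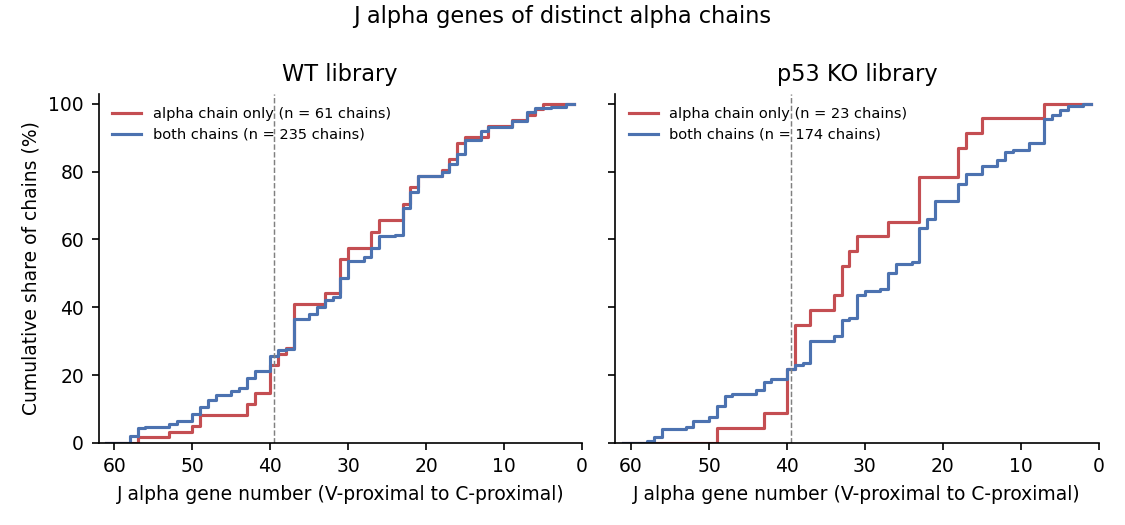
Cumulative share of distinct alpha chains (y axis, %) by the number of the J alpha gene (x axis, from the genes nearest to the V genes on the left to those nearest to the C gene on the right), for alpha-only cells (red) and cells with both chains (blue). At the dashed line, which ends TRAJ40, the lines stand at 23.0% and 25.5% in WT and 21.7% and 21.8% in p53 KO.

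The mean CDR3 alpha length was 13.54 amino acids in WT alpha-only chains (SD 1.30, 61 chains) and 13.50 beside a beta chain (SD 1.28, 235 chains). In p53 KO it was 13.35 (SD 1.23, 23 chains) and 13.57 (SD 1.51, 174 chains). The differences are far below the spread among chains. The bases shown in capitals in the sequences numbered a median of 2 per WT alpha-only chain (57 chains) and 3 beside a beta chain (213 chains), and 3 in both classes of p53 KO (23 and 160 chains). No such base was left in 10 of 57 and 28 of 213 WT chains, and in 4 of 23 and 23 of 160 p53 KO chains. The count reads shared bases as germline, which may take in added bases that agree by chance.

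Invariant chains were not found in alpha-only cells. The alpha chain of invariant natural killer T (NKT) cells, TRAV11 with TRAJ18, had 0 cells among the 82 and the 41 alpha-only cells, which allows up to 3.66% in WT and 7.32% in p53 KO. It was in 6 p53 KO cells with a beta chain. The chain of mucosal-associated invariant T cells, TRAV1 with TRAJ33, was in 0 cells of either class. Neither library held a contig of the gamma, delta or immunoglobulin loci, so gamma delta T cells and B cells cannot be looked for here.

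The p53 KO TRAV6-6 chain shared the end of its CDR3 with the invariant NKT chains of the same library, which had 4 nucleotide versions in 6 cells. The closest version, of 1 cell, was picked for display and shared the last 38 of 45 bases, in capitals. The other 3 versions, of 5 cells, shared 33 bases. Of the 15 amino acids the last 12 were identical, and both chains use TRAJ18, which supplies most of that stretch. The p53 KO TRAV7D-2 chain with TRAJ18, of 1 alpha-only cell, shared at most 28 bases and 9 amino acids. The WT TRAV12D-2 chain with TRAJ18, of 2 alpha-only cells, could be set only against these p53 KO chains, and shared at most 30 bases and 10 amino acids.
TRAV6-6 with TRAJ18: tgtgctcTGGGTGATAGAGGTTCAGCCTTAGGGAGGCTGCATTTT
TRAV11 with TRAJ18: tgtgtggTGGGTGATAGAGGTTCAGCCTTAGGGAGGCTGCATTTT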

How the data were processed

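Of the 4 samples, the 2 receptor libraries were used. The 2 libraries of gene expression were left out, since this work concerns receptor contigs. The authors deposited filtered contigs with reads and UMIs per contig as whole-number counts, not normalized, and with contig lengths in bases, per the file headers. Cell Ranger 6.1.1 and mm10 are named in the submitters' processing notes. The contigs held 14957044 reads and 4280 UMIs in WT and 19853340 and 4138 in p53 KO. The small number of cells limits the precision.

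Cells were classed by their productive TRA and TRB contigs. An alpha chain is a CDR3 nucleotide sequence within a library. The members, lists and settings were chosen with earlier results of these data known. Named genes are, for TRAV and TRAJ, the 3 with most alpha-only chains per library, and up to 2 at either end of the ratio of 1.5, among genes in 10 or more chains. Named chains are the 5 in most alpha-only cells per library, chains shared between libraries, and invariant chains. Ties were broken by name or sequence. Coordinates came from RefSeq (GRCm38.p6), where 125 of 125 gene names matched. No doublet caller was run. The counting was tested on simulated tables. Counts and intervals were made with scipy 1.17.1, numpy 2.4.6 and pandas 2.3.3 under Python 3.11.15, and plots with matplotlib 3.10.9. Alternatives were UMI minimums, other definitions of a chain or clone, and leaving out leading chains.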

Additional observations from a re-analysis of the deposited data

Results flagged for a closer look

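The difference in alpha chain depth between alpha-only cells and cells with a beta chain had opposite signs in the 2 libraries. The median TRA contig had 1 UMI less without a beta chain in WT (-1, 4 against 5 UMIs) and 1 UMI more in p53 KO (5 against 4 UMIs). The difference between the libraries was not tested, as each has 1 library.

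The mean CDR3 alpha length also differed in opposite directions, by 0.0431 amino acids in WT (longer in alpha-only chains) and by -0.227 in p53 KO (shorter). This difference was not tested either.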

How the results depend on the processing

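Of 79 values recomputed, 60 stayed within the interval or spread of the value reported, 12 moved beyond it and 7 changed sign. For those that changed, the cause was not tested. With 2 or more UMIs per contig the WT share of alpha-only cells was 26.3%, and with 3 or more the shares were 33.4% (WT) and 17.7% (p53 KO), a difference of -15.7 percentage points. Leaving out the 2 leading chains, a setting added after seeing the data, gave 6.30% alpha-only cells in p53 KO. Of them 60.9% were matched (also 60.9% with each chain counted once) and 17.4% were in chains of 2 or more alpha-only cells. The difference between the libraries in this last share turned to -15.9 points. By deposited clonotype the WT share in groups of 2 or more cells was 58.5%. With the alpha chain counted over all cells the shares were 62.2% (WT) and 78.0% (p53 KO). The setting by reads kept the contigs of 1 UMI beside a beta chain. By it, the median of alpha-only contigs was 2536 reads higher in WT and 9334 in p53 KO, which turned the WT sign. Reads are another unit than UMIs, so these values could not stay within an interval in UMIs. In the totals above they count as a change of sign in WT and as moved in p53 KO. The CDR3 length difference turned by cells in WT (-0.149) and p53 KO (0.206) and with 2 or more UMIs in WT (-0.0865). The difference in J genes numbered 40 or above turned in p53 KO with 2 or more UMIs (3.55 points) and with the top contig (0.585 points). The p53 KO share of alpha-only cells was below that of WT, and the matched share above it, under each alternative run.

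No paired analysis was possible because each genotype has 1 library.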
